A study of Homo sapiens and Mus musculus with 13 samples.

Results

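Collagen genes were taken from the 2 expression tables of a study of TRIM11, a ubiquitin ligase, and KDM5C, a histone H3K4 demethylase, in breast cancer. A gene was included when its symbol was COL, a type number, A and a chain number, and its mean level over the libraries of its table was at least 0.5 FPKM (fragments mapped to a gene, scaled for transcript length and library size). The tumor table listed 44 collagen chain symbols, of which 31 reached this level among 17328 genes that did. The cell line table listed 41, of which 19 reached it among 12636 genes. The 50 members thus stood among 29964 tested entries in all. Just inside the limit were mouse Col20a1 (mean 0.509 FPKM) and human COL16A1 (0.689), and just outside were mouse Col2a1 (0.435) and human COL4A6 (0.420).

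The tumors were mammary tumors of 3-month-old mice from a cross of C57BL/6N Trim11+/- animals with the FVB/N-Tg (MMTV-PyVT) line, so every tumor, controls included, carried the polyoma middle T oncogene under the MMTV promoter, which is active mainly in mammary epithelium. There were 3 Trim11+/+ and 3 Trim11+/- tumors, the latter heterozygous for a CRISPR/Cas9 deletion in Trim11. Whole pieces of tumor were used, with all the cell types they held. The cell line was MDA-MB-231, a human triple-negative breast cancer line with mesenchymal features, carrying Cas9 and guide RNAs: GFP-sgRNA in 1 Control line, TRIM11-sgRNA1 or TRIM11-sgRNA2 in the TRIM11-KD 1 and 2 lines, and KDM5C-sgRNA1 or KDM5C-sgRNA2 in the KDM5C-KD 1 and 2 lines. The double knockdown lines DKD 1 and 2 had TRIM11-sgRNA1 and TRIM11-sgRNA2, respectively, and KDM5C-sgRNA2 in both. Each line gave 1 library. Mouse Trim11 stood at 35.8 to 39.2 FPKM in Trim11+/+ and 22.8 to 24 in Trim11+/- tumors. Human KDM5C stood at 28.4 to 30.3 FPKM without a KDM5C guide and 18.8 to 22.7 with one, whereas TRIM11 mRNA was 12.6 in Control, 13.4 and 10.6 in TRIM11-KD 1 and 2, and 16.1 and 9.38 in DKD 1 and 2, so that the mRNA level did not check the labels of the TRIM11 lines. Library totals recovered from the tumor values were 8793199 to 11117125 reads, and the depth of the cell line libraries is unknown.

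Collagens are proteins of the extracellular matrix in which 3 chains wind around each other in a helix. The helix needs glycine at regular steps, so a collagen chain is built of long runs of a repeated unit, glycine followed by any 2 amino acids. Fibrillar collagens (types I, III, V, XI and XXVII among the members) form the banded fibrils of connective tissue, network collagens (IV and VIII) form sheets such as the basement membrane, and FACIT collagens (IX, XII, XIV, XVI, XX) sit on the surface of fibrils. Type VI forms beaded filaments, type VII the anchoring fibrils that tie epithelium to stroma, types XIII, XVII, XXIII and XXV span the cell membrane, and the multiplexins XV and XVIII lie in basement membranes. In breast tumors fibrillar collagen is made mostly by fibroblasts, and basement membrane collagen by epithelial, myoepithelial and vascular cells.

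The classes differed in how the glycine units were laid out in the longest annotated reading frame of each member, where a run was at least 6 units without a break. Fibrillar members had 2 or 3 runs, the longest of 217 to 344 units in mouse and 217 to 339 in human. Mouse Col3a1 held the 344 units, and Col1a1 338. Network members had 5 to 23 runs in mouse and their longest run was 40 to 66 units. The type IX chains Col9a1, Col9a2 and Col9a3 each had 4 runs with a longest run of 113 units, and the multiplexins had a longest run of 30. The 4 stretches here, of 54 bases each and inside 1 coding exon, show this layout for chains that were high in either table. They are given 5′ to 3′ on the coding strand with every in-frame glycine codon in capitals. Mouse Col3a1 (mm10 chr1:45325360-45325413, plus strand, exon 6) and Col9a1 (chr1:24210373-24210426, plus strand, exon 18) and human COL8A1 (hg19 chr3:99513796-99513849, plus strand, exon 5) are from the longest run, and human COL4A2 (chr13:111102690-111102743, plus strand, exon 20) spans a break between runs.
Col3a1: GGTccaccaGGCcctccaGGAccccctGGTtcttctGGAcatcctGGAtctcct
Col9a1: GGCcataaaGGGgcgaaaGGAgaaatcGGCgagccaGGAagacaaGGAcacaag
COL8A1: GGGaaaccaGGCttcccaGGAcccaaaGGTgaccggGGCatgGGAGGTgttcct
COL4A2: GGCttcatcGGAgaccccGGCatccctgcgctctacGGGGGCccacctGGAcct
In COL4A2 the third unit is followed by codons that are out of step, and the glycine codons then resume in another register.

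COL4A1 and COL4A2, whose products make up the common type IV helix, start back to back. In hg19 the annotated starts of their main transcripts lay at 110959504 (COL4A1, minus strand) and 110959631 (COL4A2, plus strand) on chromosome 13, with 126 bases between them. This stretch (chr13:110959505-110959630, plus strand) is shown because the genes shared it and were followed as a pair in both tables, and its capitals mark the motifs found.
COL4A1-COL4A2: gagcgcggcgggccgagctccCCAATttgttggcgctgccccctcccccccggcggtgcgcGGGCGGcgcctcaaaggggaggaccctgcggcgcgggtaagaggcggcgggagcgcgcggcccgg
It was 80.2% G or C. Searched on both strands, CCAAT (the CCAAT box) and GGGCGG (the GC box) matched 1 time each, on the plus strand, and TATAAA did not match. Of 35116 RefSeq promoter windows (GRCh38.p14) of the same length, the 126 bases before each gene's start, 21.1% held CCAAT, 34.6% GGGCGG and 5.87% TATAAA on either strand. The library kit did not keep strand, so reads from the overlapping ends of genes on opposite strands, such as mouse Col4a1 and Col4a2, cannot be told apart.

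In the tumors, collagen mRNA took 0.150 to 0.229% of each library's summed FPKM. The highest members were the fibrillar genes Col3a1, Col1a1 and Col1a2, the type IX genes and Col16a1, while members of other classes reached at most 39.3 FPKM in any tumor. Summed over 9 fibrillar members the level was 141, 316 and 283 FPKM in Trim11+/+ tumors 1 to 3 and 221, 146 and 152 in Trim11+/- tumors 1 to 3. The 7 FACIT members summed to 208 to 271 FPKM in all 6 tumors, and the 6 network members to 67.1 to 118.

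**Figure D1:**
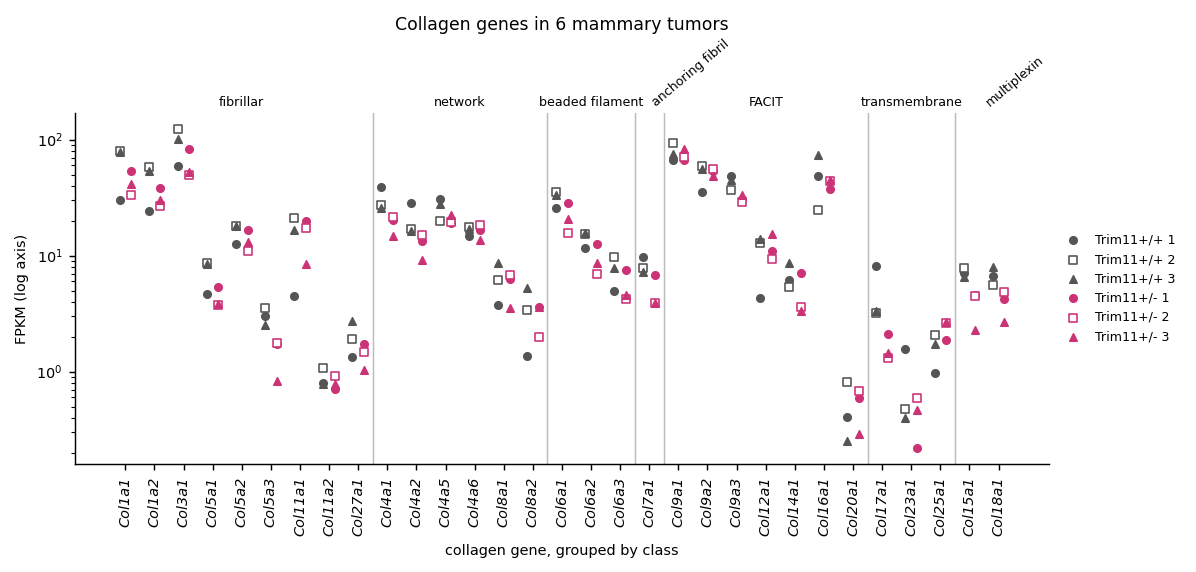
FPKM (log axis) of the 31 collagen genes in each of 6 tumors, grouped by class along the horizontal axis, with 1 point per tumor, Trim11+/+ in grey and Trim11+/- in magenta. Type IX genes lie in a narrow band at 29.0 to 93.1 FPKM, and Trim11+/+ tumor 1 is apart from the other tumors in Col11a1, Col12a1 and Col17a1.

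Trim11+/- tumors were compared with Trim11+/+ tumors by limma on log2(FPKM + 1), and a gene was called when the ratio of mean FPKM was at least 1.5 in either direction with an unadjusted p under 0.05. Of the 31 collagen members, 9 were called lower in Trim11+/- and 0 higher. Among all 17328 genes, 324 (1.87%) were called lower and 301 (1.74%) higher. The 9 genes were the basement membrane chains Col4a1, Col4a2, Col15a1 and Col18a1, the minor fibrillar chains Col5a1 and Col5a3, the beaded filament chain Col6a2, the anchoring fibril gene Col7a1 and the hemidesmosome gene Col17a1. No member passed after Benjamini-Hochberg adjustment over all genes (lowest limma adjusted p = 0.634), and 1 gene of the whole table did (0.00577%). The log2 fold change was below 0 in 26 of 31 members with a median of -0.40, against 50.9% of all genes and a median of 0.00 over them. In 8 members every Trim11+/- tumor was lower than every Trim11+/+ tumor and in 0 members higher, where 6.78% and 6.6% of all genes separated in these directions. In whole tumors, fewer cells of a type and less RNA per cell cannot be told apart.

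**Figure D2:**
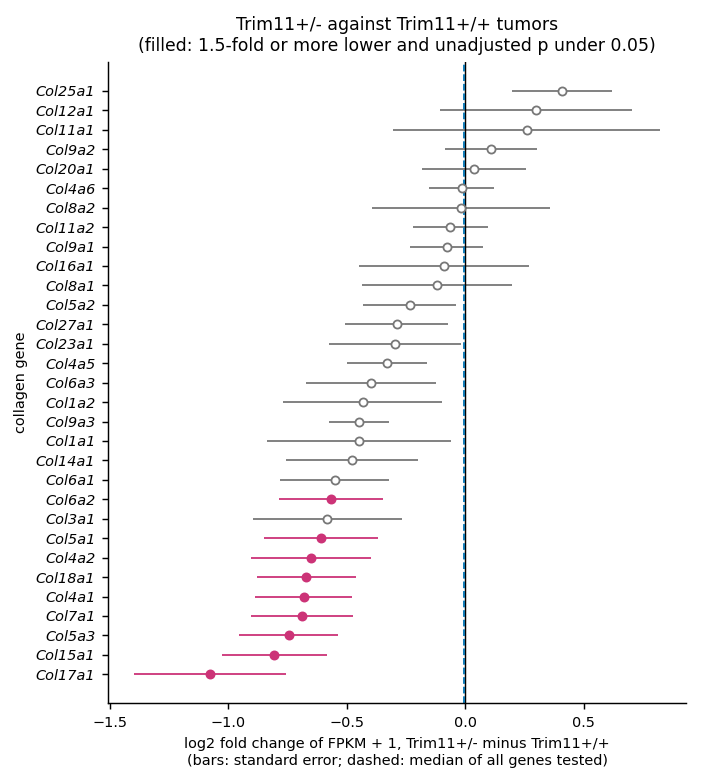
The log2 fold change of FPKM + 1 in Trim11+/- minus Trim11+/+ tumors (points; bars are limma standard errors, 3 tumors per genotype) for the 31 collagen genes, filled where a gene was called lower. The 9 filled genes run from Col17a1 at -1.08 to Col6a2 at -0.57, and the dashed line marks the median of all genes.

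Type IV chains differed by pair. Col4a1 stood at 39.3, 27.5 and 25.8 FPKM in Trim11+/+ tumors and at 20.1, 21.4 and 14.7 in Trim11+/- tumors. The genotypes did not overlap, although Trim11+/+ tumor 1 was well above the rest. The log2 fold change was -0.68 ± 0.20 (SE, n = 3 per genotype; limma adjusted p = 0.634). Its partner Col4a2 was at 28.2, 17.1 and 16.4 in Trim11+/+ and 13.3, 15.1 and 9.25 in Trim11+/-, a change of -0.65 ± 0.25 (limma adjusted p = 0.707). The ratio of Col4a1 to Col4a2 stayed between 1.40 and 1.61 in the 6 tumors. Without Trim11+/+ tumor 1 neither chain was called (log2 fold change of Col4a1 -0.50 and of Col4a2 -0.41), nor without Trim11+/- tumor 3 (-0.53 and -0.46). Col4a2 was also not called without Trim11+/- tumor 1 (-0.70). The X-linked chains Col4a5 and Col4a6, which also start back to back and form the other mammary epithelial type IV helix, were not called. Col4a5 was at 30.8, 20.0 and 27.7 FPKM in Trim11+/+ and 19.2, 19.4 and 22.4 in Trim11+/- tumors, overlapping. Col4a6 was at 14.7, 17.5 and 17.1 against 16.8, 18.5 and 13.7.

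The multiplexins, whose C-terminal fragments include endostatin (from Col18a1), were both called. Col15a1 (mm10 chr4:47208161-47313167) stood at 7.02, 7.85 and 6.56 FPKM in Trim11+/+ and 4.56, 4.496 and 2.29 in Trim11+/- tumors, with no overlap and a log2 fold change of -0.81 ± 0.22 (limma adjusted p = 0.634). Col18a1 (chr10:77052178-77166548) was at 6.62, 5.63 and 8.05 in Trim11+/+ and 4.25, 4.84 and 2.69 in Trim11+/-, also apart, with a change of -0.67 ± 0.21 (limma adjusted p = 0.646). Col18a1 was not called without Trim11+/+ tumor 3 (-0.56) or without Trim11+/- tumor 3 (-0.48).

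Collagens of epithelial adhesion were lower as well. Col17a1 (chr19:47646344-47692094), the hemidesmosome protein of basal cells, was at 8.08, 3.21 and 3.36 FPKM in Trim11+/+ and 2.12, 1.32 and 1.44 in Trim11+/- tumors. It had the lowest log2 fold change of all members, -1.08 ± 0.32 (limma adjusted p = 0.634), and the tumors did not overlap. Without Trim11+/+ tumor 1 the change of Col17a1 was -0.72 and still called. Col7a1 (chr9:108953586-108984875), the anchoring fibril chain, was at 9.80, 7.87 and 7.18 in Trim11+/+ and 6.76, 3.88 and 3.94 in Trim11+/-, a change of -0.69 ± 0.22 (limma adjusted p = 0.646). Without Trim11+/+ tumor 1 the change of Col7a1 was -0.57 and no longer called, and the same held without Trim11+/- tumor 2 (-0.58) or 3 (-0.58).

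Beside these genes, 5 of 7 markers of basal and myoepithelial cells were called lower in Trim11+/- tumors (Krt5, Krt14, Krt17, Trp63 and Oxtr) and 0 higher. Of all genes, 1.87% were called lower and 1.74% higher. The summed level of this list was 208, 111 and 188 FPKM in Trim11+/+ and 87.9, 48.3 and 72.5 in Trim11+/- tumors. In Trim11+/+ tumor 1, Krt5 was at 105 FPKM, against 7.14 to 62.5 in the other 5 tumors, and the contractile gene Acta2 at 138, against 17 to 36.5. Skeletal muscle markers summed to 24.7 to 289 FPKM in all Trim11+/+ tumors and Trim11+/- tumor 1, and to 1.30 and 1.40 in Trim11+/- tumors 2 and 3. Fibroblast markers summed to 58.7, 90.9 and 74.5 in Trim11+/+ and 89.4, 47.0 and 40.2 in Trim11+/- tumors, with Tcf21 at 0 in all. Of 9 tested, 0 were called, although all 9 had log2 fold changes below 0 (median -0.22). Of the endothelial (8 tested), luminal (7), macrophage (6), adipocyte (6) and pericyte and smooth muscle (8) markers, 0 were called. Log2 fold changes were below 0 in 6, 4, 6, 5 and 7 of them, respectively, where 50.9% of all genes were. The luminal epithelial genes Epcam and Krt8 stood at 408 and 335 FPKM or more, respectively, in every tumor. Krt19, of the same list, was at 149, 184 and 177 in Trim11+/+ and 204, 102 and 35.0 in Trim11+/- tumors. The luminal list summed to 3227, 4033 and 4075 in Trim11+/+ and 3913, 3828 and 2500 in Trim11+/- tumors. The part of these cell types in the collagen values was not tested.

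The abundant fibrillar chains varied as much within a genotype as between genotypes. Col1a1, the main chain of type I, was at 30.5, 79.7 and 78.6 FPKM in Trim11+/+ and 53.5, 33.4 and 41.2 in Trim11+/- tumors, where Trim11+/+ tumor 1 was the lowest of all. Col1a2 followed it at 24.3, 58.2 and 53.9 against 38.3, 26.6 and 30.0, and the ratio of Col1a1 to Col1a2 was 1.25 to 1.46 in all 6 tumors. Col3a1, of reticular fibers, was at 59.0, 124 and 101 against 82.9, 49.3 and 53.0. None of the 3 was called (limma adjusted p = 0.837, 0.825 and 0.747), but without Trim11+/+ tumor 1 all were called lower (log2 fold changes of -0.90, -0.82 and -0.89). Leaving out Trim11+/- tumor 1 also brought a call of Col3a1 (-0.81).

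Among the minor fibrillar chains, which regulate fibril diameter, Col5a3 (chr9:20770050-20815067) was at 3.04, 3.57 and 2.50 FPKM in Trim11+/+ and 1.72, 1.75 and 0.834 in Trim11+/- tumors. The genotypes did not overlap, and the log2 fold change was -0.75 ± 0.21 (limma adjusted p = 0.634). Col5a1 was at 4.69, 8.63 and 8.42 against 5.36, 3.73 and 3.84. These overlapped through Trim11+/+ tumor 1, with a change of -0.61 ± 0.24 (limma adjusted p = 0.708), which was not called when any tumor but Trim11+/+ 1 or Trim11+/- 1 was left out (-0.55 to -0.48). Col5a2 (11.1 to 18.1 FPKM) and Col11a1 (4.48 to 20.9) were not called.

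All 3 main chains of type VI, which forms a pericellular filament network, were lower on average. Col6a1 was at 25.6, 35.4 and 33.2 FPKM in Trim11+/+ and 28.4, 15.6 and 20.5 in Trim11+/- tumors. Col6a2 was at 11.7, 15.3 and 15.5 against 12.7, 7.01 and 8.58, and Col6a3 at 4.97, 9.69 and 7.90 against 7.48, 4.20 and 4.62. Each overlapped, since Trim11+/- tumor 1 lay above Trim11+/+ tumor 1. Col6a2 alone passed both limits, narrowly, with a mean ratio of 0.666 (-0.57 ± 0.22, limma adjusted p = 0.707), and median-ratio scaling removed it (-0.56), as did leaving out Trim11+/+ tumor 2 (-0.51) or 3 (-0.50) or Trim11+/- tumor 2 (-0.39) or 3 (-0.52). Col6a1 had a mean ratio of 0.685 and Col6a3 of 0.723.

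Type IX, a surface collagen best known from cartilage, was among the highest in these tumors. Col9a1 stood at 66.2, 93.1 and 75.8 FPKM in Trim11+/+ and 67.2, 70.5 and 83.5 in Trim11+/- tumors. Col9a2 was at 35.7, 58.7 and 55.3 against 53.7, 55.5 and 49.0. Neither was called, and the genotypes overlapped in both. Col9a3 was at 48.3, 36.7 and 44.5 in Trim11+/+ and at 31.0, 29.0 and 33.5 in Trim11+/-, without overlap. Its change of -0.45 ± 0.13 (limma adjusted p = 0.634) was a mean ratio of 0.722, short of the 1.5-fold limit. The reads behind these genes numbered 982 to 4798 per tumor. Of the cartilage markers, Acan was listed at 0 to 0.221 FPKM and Matn1 at 0 to 0.0996, while Col2a1 stood at 0.139 to 0.787, Comp at 0.332 to 0.772 in 5 tumors and 2.95 in Trim11+/- tumor 2, and Sox9, which luminal cells also express, at 18.5 to 30.7. Col16a1, another FACIT, ranged from 24.9 to 73.1 FPKM within Trim11+/+ alone and from 37.2 to 45.1 in Trim11+/-. Its log2 fold change of -0.09 ± 0.36 became 0.26 without Trim11+/+ tumor 3.

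In 8 members the exact permutation test of the 6 tumors gave p = 0.1 (two-sided), the smallest p that 3 against 3 allows. These were Col4a1, Col4a2, Col5a3, Col7a1, Col9a3, Col15a1, Col17a1 and Col18a1. The other 23 members had exact p-values of 0.2 to 1.0. Col25a1, a membrane collagen, was the member with the highest log2 fold change, 0.41 ± 0.21 (limma adjusted p = 0.737), at 0.969, 2.05 and 1.72 FPKM in Trim11+/+ and 1.86, 2.65 and 2.66 in Trim11+/- tumors.

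Genes that act on collagen were read from lists. Of 20 enzymes and chaperones of collagen folding (such as prolyl and lysyl hydroxylases and Serpinh1), 0 were called. Of 11 tested procollagen proteinases, enhancers and crosslinking enzymes, 0 were called although all 11 had log2 fold changes below 0 (median -0.29). Of 9 tested collagen receptors, 0 were called. Among 12 tested collagen-binding proteins of fibrils, 3 were called lower and 11 had log2 fold changes below 0 (median -0.42). Fn1, fibronectin, was at 14.5, 19 and 20.7 FPKM in Trim11+/+ and 15.9, 9.14 and 8.52 in Trim11+/- tumors (log2 fold change -0.68), and Prelp (-0.64) and Tnxb (-0.60) were the others. Mmp14, a membrane collagenase, was called lower among 5 tested collagenases and gelatinases, at 20.1, 22.3 and 18.1 against 16.2, 9.14 and 10.9 (-0.73). Among 15 basement membrane partners of collagen IV, the laminin chain gene Lama3 was called lower (-0.64), and 14 of 15 had log2 fold changes below 0. Of all genes, 1.87% were called lower and 1.74% higher, and 50.9% had log2 fold changes below 0. Whether the lists differ from these shares was not tested.

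In MDA-MB-231 the order of the collagens was another one. COL8A1, a short-chain network collagen, was the highest, at 159 FPKM in Control, 199 and 354 in TRIM11-KD 1 and 2, 207 and 190.1 in KDM5C-KD 1 and 2, and 207 and 326 in DKD 1 and 2. Every knockdown line lay above Control, by 1.19- to 2.22-fold. The type IV chain COL4A2 followed, at 76.0 in Control, 99.99 and 85.9 in TRIM11-KD, 107 and 95.8 in KDM5C-KD, and 86.4 and 72.4 in DKD. COL4A1 was at 25.2 in Control, 34.4 and 24.5 in TRIM11-KD, 33.2 and 35.5 in KDM5C-KD, and 25.3 and 17.4 in DKD, below COL4A2 in every library.

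COL12A1, a FACIT of stressed tissues, was at 45.0 FPKM in Control, 60.1 and 72.4 in TRIM11-KD, 54.6 and 66.1 in KDM5C-KD, and 53.1 and 61.3 in DKD, so that Control was the lowest. COL13A1, a membrane collagen of adhesion sites, was at 69.9 in Control, 58.3 and 58.2 in TRIM11-KD, 57.0 and 39.1 in KDM5C-KD, and 71.3 and 54.5 in DKD. COL18A1 was at 66.8 in Control, 66.8 and 61.5 in TRIM11-KD, 44.9 and 24.4 in KDM5C-KD, and 58.3 and 58.5 in DKD. Both KDM5C-KD lines were lowest for COL18A1. For COL13A1 they lay below both TRIM11-KD lines and overlapped DKD. COL5A1 was at 46.6 in Control, 50.2 and 45.8 in TRIM11-KD, 33.1 and 46.9 in KDM5C-KD, and 32.7 and 43.0 in DKD. COL6A1 was at 47.9 in Control, 59.2 and 36.2 in TRIM11-KD, 37 and 24.8 in KDM5C-KD, and 36.3 and 38.3 in DKD. COL6A2 was at 37 in Control, 58.2 and 36.0 in TRIM11-KD, 39.8 and 19.2 in KDM5C-KD, and 54.9 and 38.5 in DKD. The ranges of COL12A1, COL13A1, COL18A1, COL5A1, COL6A1 and COL6A2 overlapped each other, so their order does not hold beyond the spread. Of the 8 markers fixed for the line, the mesenchymal genes VIM (1038 FPKM or more), AXL (406 or more), CD44 (188 or more) and ZEB1 (5.67 or more) were present, while CDH2 was at 0.673 to 0.903 in 6 libraries and 3.82 in KDM5C-KD 2. Of the epithelial genes among these 8, CDH1 was low at 0.615 to 1.98 and ESR1 at most 0.0234. The keratins of the luminal list were high, with KRT8 at 375 to 622 FPKM, KRT18 at 296 to 440 and KRT19 at 193.5 to 319. ELF5 and CSN3 of that list were at most 0.0396 and 0.155. EPCAM was at 4.03 in Control, 4.999 and 6.77 in TRIM11-KD, and 10.3 to 12.3 in KDM5C-KD and DKD, and its part in the collagen values was not tested.

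The chains of 1 collagen type were often unequal in the line. COL5A1 exceeded COL5A2 by 140.1 to 590-fold in FPKM (COL5A2 at 0.0790 to 0.307), where mouse Col5a1 was 0.290 to 0.477 of Col5a2 in the tumors. COL8A1 exceeded COL8A2 by 104 to 901-fold. COL4A1 was 0.241 to 0.371 of COL4A2, and COL9A2 (2.44 to 9.38 FPKM) was expressed with COL9A1 listed at 0 in 6 of 7 libraries. Type VI was nearly even for COL6A1 to COL6A2, at 0.661 to 1.30. COL3A1, whose mouse counterpart had the highest mean of the tumor collagens, was at most 0.0233 FPKM in the line, in an entry that joins it with a microRNA. COL7A1 and COL17A1 also shared entries with a microRNA and were therefore not members. The COL7A1 entry stood at 8.48 FPKM in Control, 11.4 and 8.58 in TRIM11-KD 1 and 2, 5.65 and 5.95 in KDM5C-KD, and 10.5 and 5.97 in DKD. The COL17A1 entry stood at 1.80 in Control, 3.42 and 6.18 in TRIM11-KD, 1.07 and 0.752 in KDM5C-KD, and 2.71 and 4.88 in DKD.

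**Figure D3:**
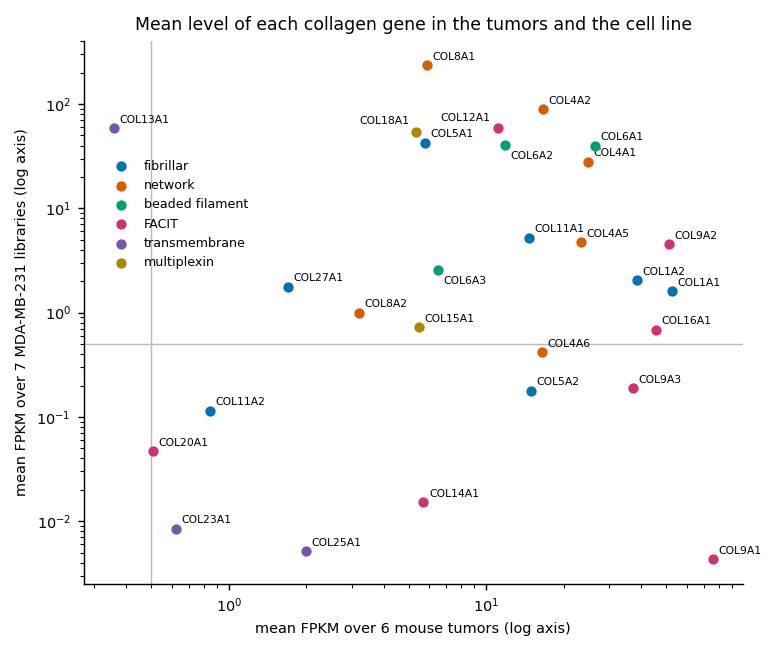
Mean FPKM of each collagen gene in the 6 mouse tumors (horizontal, log axis) and the 7 MDA-MB-231 libraries (vertical, log axis), 1 point per gene and coloured by class, with grey lines at 0.5 FPKM; genes listed at 0 in the cell line or joined with another gene there are not drawn. COL9A1 lies farthest to the right and at the bottom, COL8A1 at the top and COL13A1 high at the left.

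Over the tables, 18 genes were members in both species, 13 only in the tumors and 1, COL13A1, only in the cell line. Across those 18 genes Spearman's rho between the 2 mean levels was -0.14 and Pearson's r of the log2 means -0.09, given as a description over genes, since the tables differ in species, in cell types and in normalization. COL1A1 averaged 52.8 FPKM in the tumors and 1.60 in the line, and COL16A1 45.5 and 0.689. COL8A1 averaged 5.87 and 235, and COL18A1 5.35 and 54.5.

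**Figure D4:**
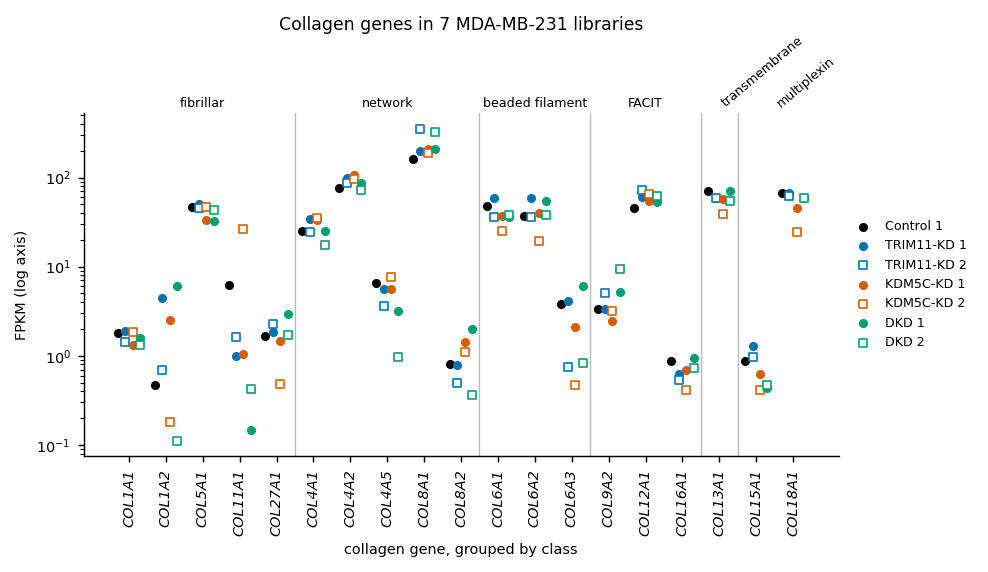
FPKM (log axis) of the 19 collagen genes in each of 7 MDA-MB-231 libraries, grouped by class along the horizontal axis, with 1 point per library, colour for the group and open squares for lines numbered 2. COL1A2, COL6A3 and COL11A1 spread over more than 10-fold, while COL5A1, COL4A2 and COL12A1 stay close together.

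Each knockdown line was set against the 1 Control library, with no test. A gene was counted when both lines of a group were at least 1.5-fold above or below Control. TRIM11-KD had 0 collagen genes above and 1 below, where 3.11% and 2.58% of all genes were. KDM5C-KD had 0 above and 1 below (all genes 5.1% and 3.97%). DKD had 1 above and 3 below (all genes 5.57% and 4.87%). In TRIM11-KD and KDM5C-KD, 1 of 19 members was near these shares. The gene below in TRIM11-KD was COL11A1, a minor fibrillar chain, at 6.26 FPKM in Control, 1.001 in TRIM11-KD 1 and 1.61 in TRIM11-KD 2. COL11A1 was also below in DKD (0.148 and 0.426), while it was 1.05 in KDM5C-KD 1 and 26.3 in KDM5C-KD 2, the highest of all libraries. COL6A3 was the gene below in both KDM5C-KD lines, at 3.77 in Control and 2.11 and 0.476 in the lines. In DKD, COL4A5 (6.62 in Control, 3.19 and 0.974) and COL15A1 (0.865, 0.438 and 0.477) were below, and COL9A2 (3.31, 5.15 and 9.38) above. COL1A1, COL4A1, COL4A2 and COL5A1 stayed within 1.5-fold of Control in all 6 lines.

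The knockdown groups were compared with each other by limma over the knockdown libraries, with 2 lines per group and the same limits. Control was left out of this fit and counted only toward the minimum mean FPKM. DKD carried a TRIM11 guide that KDM5C-KD lacked, and KDM5C-KD 1 also had another KDM5C guide than both DKD lines. Between KDM5C-KD and DKD, 2 of 19 members were called higher in KDM5C-KD and 3 lower (all genes 3.41% and 3.33%). COL4A5 was at 5.64 and 7.58 FPKM in KDM5C-KD and 3.19 and 0.974 in DKD, a log2 fold change of 1.39 ± 0.39 (SE, n = 2 per group; limma adjusted p = 0.379). COL4A1 was at 33.2 and 35.5 against 25.3 and 17.4, a change of 0.68 ± 0.23 (limma adjusted p = 0.388). COL4A2, at 107 and 95.8 against 86.4 and 72.4, was not called. Lower in KDM5C-KD were COL9A2 (2.44 and 3.15 against 5.15 and 9.38, log2 fold change -1.08 ± 0.30), COL18A1 (44.9 and 24.4 against 58.3 and 58.5, -0.80 ± 0.27) and COL27A1 (1.46 and 0.486 against 2.91 and 1.71, -0.77 ± 0.31), with limma adjusted p-values of 0.379, 0.388 and 0.421. The lines of the groups did not overlap in these 5 genes, which adds no support, since calls with 2 lines against 2 favor such genes. Of all 19 members, 4 lay higher and 5 lower in KDM5C-KD without overlap. The share of all genes without overlap was not computed.

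Between KDM5C-KD and TRIM11-KD, 0 members were called higher and 2 lower in KDM5C-KD (all genes 3.09% and 2.28%). These were COL18A1, at 44.9 and 24.4 FPKM in KDM5C-KD and 66.8 and 61.5 in TRIM11-KD (log2 fold change -0.93 ± 0.27, limma adjusted p = 0.494), and COL15A1, at 0.617 and 0.417 against 1.29 and 0.978 (-0.49 ± 0.19, limma adjusted p = 0.501). Between DKD and TRIM11-KD, 0 were called higher and 1 lower (all genes 1.67% and 1.62%). This was COL15A1, at 0.438 and 0.477 in DKD (-0.55 ± 0.19, limma adjusted p = 0.702). Here the lines of a number share their TRIM11 guide, and with the number as a block COL9A2 (0.63) was also called higher and COL4A5 (-0.93) lower beside COL15A1, with a lowest limma adjusted p of 0.372 among members. In these 3 comparisons, 0 genes of the whole table passed adjustment by limma, while 1473, 1241 and 888 had an unadjusted p under 0.05, and limma without a trend passed 0, 2 and 2. The comparisons share libraries and are not independent of each other. Every one of these 8 calls was lost when 1 library or another was left out, where the line left alone in its group was assumed to vary like the others. KDM5C-KD 2 was the lowest library for COL6A1, COL6A2, COL13A1 and COL18A1 and the highest for COL11A1. Without it COL18A1 changed by -0.37 against DKD and -0.50 against TRIM11-KD, and COL4A1 by 0.64, COL4A5 by 1.21 and COL27A1 by -0.40 against DKD. COL27A1 was not called without DKD 1 either (-0.50), nor without either TRIM11-KD line (-0.77). Without KDM5C-KD 1 COL18A1 changed by -1.22 against DKD, and without DKD 2 COL4A5 changed by 0.85, both still called. COL18A1 was not called against DKD without DKD 1 or DKD 2 either, nor against TRIM11-KD without TRIM11-KD 1. COL4A1 was also not called without KDM5C-KD 1 (0.73) or DKD 2 (0.42), nor COL9A2 without KDM5C-KD 1 (-0.95) or DKD 2 (-0.70). COL15A1 against TRIM11-KD was not called without TRIM11-KD 1 (-0.39 in KDM5C-KD and -0.44 in DKD). For KDM5C-KD the call of COL15A1 was also lost without TRIM11-KD 2, KDM5C-KD 2, DKD 1 or DKD 2. For DKD it was also lost without DKD 1 or DKD 2.

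**Figure D5:**
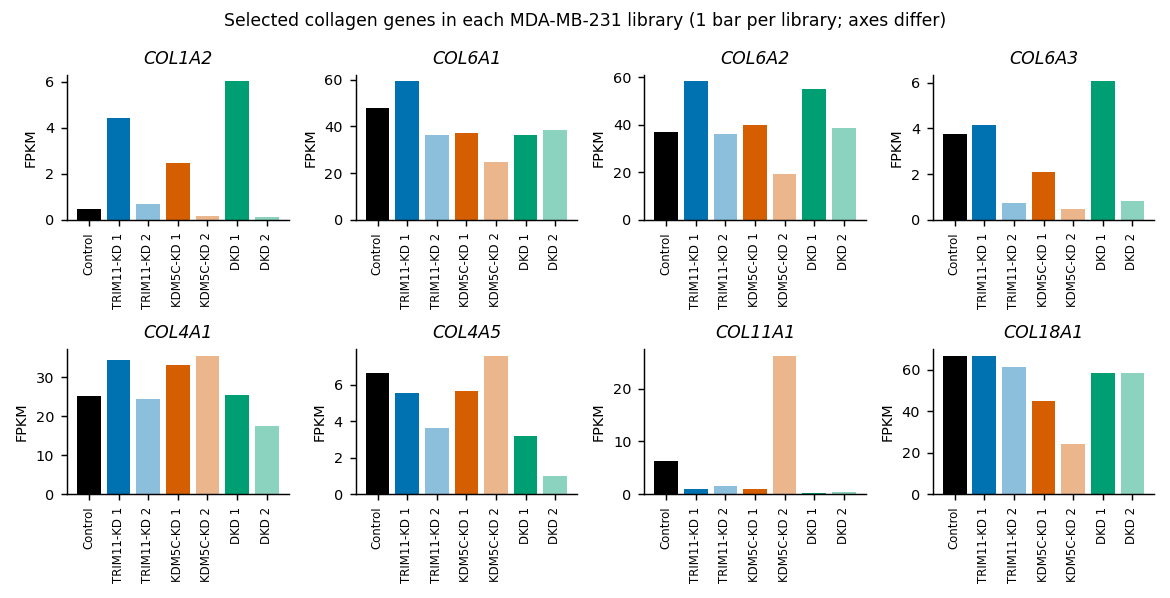
FPKM of 8 collagen genes, chosen after their values were seen, in each MDA-MB-231 library (bars from 0, 1 bar per library, lighter for lines numbered 2, with separate axes). COL1A2 and COL6A3 are high in the lines numbered 1 and low in those numbered 2 in each of the 3 knockdown groups, and COL11A1 stands at 26.3 FPKM in KDM5C-KD 2.

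Some collagens followed the number of the line more than its group. COL1A2 was at 4.45, 2.50 and 6.02 FPKM in TRIM11-KD 1, KDM5C-KD 1 and DKD 1, and at 0.685, 0.181 and 0.112 in the lines numbered 2, with Control at 0.469. COL6A3 was at 4.14, 2.11 and 6.06 in the lines numbered 1 and 0.749, 0.476 and 0.836 in those numbered 2. COL6A2 also lay higher in every line numbered 1 (39.8 to 58.2 FPKM) than in any numbered 2 (19.2 to 38.5), and COL12A1 lower (53.1 to 60.1 against 61.3 to 72.4). Thus 3 of 19 members were above and 1 below, against 1028 (8.14%) and 1196 (9.47%) of all genes. Many other genes thus followed the number too, and whether the members differ from these shares was not tested. The collagenase gene MMP1 had the same order, at 43.2, 17.8 and 34.1 FPKM in lines numbered 1 and 0.690, 0.0853 and 0.797 in those numbered 2. TRIM11-KD 1 and DKD 1 share TRIM11-sgRNA1, and TRIM11-KD 2 and DKD 2 share TRIM11-sgRNA2, but KDM5C-KD 2 and both DKD lines share KDM5C-sgRNA2. What the number stands for beyond the guide is not stated, and the guide cannot be told apart from the line that carries it.

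Among genes that act on collagen, both lines of every knockdown group were at least 1.5-fold above Control for LEPREL2, a prolyl 3-hydroxylase, at 1.03 FPKM in Control, 2.94 and 4.01 in TRIM11-KD, 6.42 and 12.5 in KDM5C-KD, and 3.44 and 5.88 in DKD. Of the 18 tested enzymes and chaperones, COLGALT2 was the other one past the limit in TRIM11-KD (below) and LEPREL4 the other one in DKD (above). Of 10 tested proteinases, enhancers and crosslinking enzymes, PCOLCE2, an enhancer of procollagen processing, was above Control in KDM5C-KD and DKD (1.77 in Control, 4.81 and 3.65, and 5.55 and 4.15). Of 5 tested collagen receptors, ITGA10 was below Control in all 3 groups, at 2.37 in Control and 0.0731 to 0.920 in the lines, and ITGA2 was below in KDM5C-KD (26.4, 13.6 and 7.89). MMP14 was below in KDM5C-KD (190.2 in Control, 115 and 59.7). Of 3 tested collagen-binding proteins FMOD was above in all 3 groups, at 0.226 in Control and 0.342 to 1.05 in the lines. Among 10 tested basement membrane partners, LAMB1 was above (20.4 in Control, 38.6 to 39.5) and LAMB2 below Control in both KDM5C-KD and DKD. LAMA1 was above Control in KDM5C-KD, LAMA4 below in TRIM11-KD, TNXB below in DKD, ADAMTS14 above in TRIM11-KD and DKD, and BMP1 and PCOLCE below in DKD. Of all genes, 3.11% were above and 2.58% below Control in TRIM11-KD by this rule. The shares were 5.1% and 3.97% in KDM5C-KD, and 5.57% and 4.87% in DKD. Whether the lists differ from these shares was not tested.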

How the data were processed

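Poly(A) RNA libraries from 7 MDA-MB-231 lines and 6 tumors, made with a kit that keeps no strand, were mapped by the authors with HISAT2 to hg19 or mm10, and the deposited FPKM values were computed with Cufflinks, 1 table per species, per the study's methods. The submitters' processing notes also list Bowtie 0.12.2 and mm8. Genes averaging 0.5 FPKM or more were tested with limma 3.58.1 (R 4.3.3, eBayes with a trend) on log2(FPKM + 1), which understates changes of low genes. P-values were adjusted by Benjamini-Hochberg over all genes of the table. A call needed 1.5-fold and p under 0.05. Whole reads were recovered from tumor values with 1 annotation entry (98.8% whole within 0.02). Glycine units were read from GENCODE reading frames. The code was tested on simulated data. Values per library are given for members averaging at least 20 FPKM in tumors or 5 in lines, or called. A gene of the basement membrane list is not reported here. Members and gene lists were chosen with earlier results of these data known. Of the cell line rows, 27 had dates as symbols and were left out. Nothing states that replicates came from separate cultures, so p-values cover only the spread between these samples.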

Additional observations from a re-analysis of the deposited data

Results flagged for a closer look

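In 6 of 19 collagen genes the change that went with a KDM5C guide had opposite signs in lines without and with a TRIM11 guide, comparing both KDM5C-KD lines with Control and each DKD line with the TRIM11-KD line of its number. Of all 12636 genes, 2345 (18.6%) showed such opposite signs, and whether the collagen genes differ from that share was not tested. The difference of these changes was fitted by limma over the 7 libraries on log2(FPKM + 1), an alternative added after seeing the data. For COL4A1 it was 0.883 ± 0.36 (SE; limma adjusted p = 0.879), with log2 ratios of 0.40 and 0.50 for KDM5C-KD to Control and -0.44 and -0.49 for DKD to TRIM11-KD. For its partner COL4A2 it was 0.638 ± 0.23 (limma adjusted p = 0.879), with ratios of 0.50 and 0.33, and -0.21 and -0.25. The others were COL12A1 at 0.616, COL6A3 at -1.419, COL9A2 at -0.822 and COL16A1 at -0.486, with limma adjusted p-values of 0.879 to 0.909. None passed adjustment, while 2 of 12636 genes did and 694 had an unadjusted p under 0.05. Control is 1 library, shared by both KDM5C-KD ratios. KDM5C-KD 1 carried KDM5C-sgRNA1, while KDM5C-KD 2 and both DKD lines carried KDM5C-sgRNA2. The presence of a TRIM11 guide is therefore not the only difference between the changes compared.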

How the results depend on the processing

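In the tumors, 9 members were called lower, and 0 were called higher under every alternative. With a 2-fold limit 2 remained lower, with an adjusted p under 0.05 0, and leaving out 1 tumor gave 3 (without Trim11+/- tumor 3) to 11 (without Trim11+/+ tumor 1). Of all 17328 genes, 358 and 415 were called lower when these tumors were left out, respectively. Over left-out tumors the log2 fold change ran from -0.19 to 0.051 for Col9a1, from -0.11 to 0.24 for Col9a2 and from -0.50 to 0.26 for Col16a1. limma-voom on recovered reads, added after seeing the data, called the same 9.

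Against Control, with the mean of both lines in place of each line, TRIM11-KD had 2 higher and 3 lower, KDM5C-KD 3 higher and 6 lower, and DKD 3 higher. With 1 line alone, TRIM11-KD had 2 to 3 higher and 1 to 5 lower, KDM5C-KD 1 to 2 higher and 2 to 9 lower, and DKD 2 to 5 higher and 3 to 6 lower. The shares of all genes under these settings are not given here. At 2-fold, KDM5C-KD had 0 lower and DKD 0 higher, and a pseudocount of 1 also left DKD with 0 higher.

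Between knockdown groups an adjusted p under 0.05 left 0 in either direction as long as both lines of every group were kept. This did not hold for every fit without 1 line. Leaving out 1 line gave 0 to 3 higher and 1 to 4 lower in KDM5C-KD against DKD, 0 to 1 and 0 to 5 against TRIM11-KD, and 0 to 1 and 0 to 2 in DKD against TRIM11-KD. KDM5C-KD against TRIM11-KD had 1 lower with a pseudocount of 0.1, with a minimum of 1 FPKM or with only the groups compared, and 1 higher with no minimum. Of all genes, 284 of 12636, 268 of 11775 and 294 of 12636 were lower in these settings, respectively. With no minimum, 520 of 18168 were higher. DKD against TRIM11-KD had 0 lower with a minimum of 1 FPKM, and 2 with no minimum, with median-ratio scaling or with only the groups compared. Here 181 of 11775, 377 of 18168, 216 of 12636 and 222 of 12636 of all genes were lower, respectively.

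With the replicate number as a block, 7 members were lower in the tumors, where 284 of all 17328 genes were. The block gave 3 higher and 5 lower in KDM5C-KD against DKD, 6 lower against TRIM11-KD, and 1 higher and 2 lower in DKD against TRIM11-KD. Over all 12636 genes it gave 525 higher and 576 lower, 425 lower, and 309 higher and 267 lower, respectively. Without the block these were 431 and 421, 288, and 211 and 205. Same-numbered tumors correlated at -0.33, 0.04 and -0.13 and same-numbered lines at 0.09 to 0.37 in their deviations from the group means, so the number was not taken as a pairing in general. The number marks a shared TRIM11 guide between TRIM11-KD and DKD, and the labels give it no other meaning across groups. The causes of these changes were not tested. The depth of the cell line libraries is unknown, which leaves counting error there unmeasured.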
